A study of Mus musculus with 15 samples.

Results

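Collagen genes were read in RNA of 3 kinds of immune cell sorted from the mouse lung. The members were taken by symbol, as every gene whose symbol is Col, a number, the letter a and a second number. Of the 21110 genes of the table, 41 matched. This set was chosen with earlier results of these data known. The series holds 15 poly(A) RNA sequencing libraries in 8 groups, all from lungs of C57BL6/J mice. Papain, a plant protease used as an inhaled allergen, was given into the nose at 50 µg per mouse on 3 days. The basophil gate took cells with FceR1 and CD49b and without c-kit, with 2 libraries from untreated (naive) and 2 from papain-treated mice. Eosinophils were sorted as SiglecF+ Gr1lo cells without autofluorescence, with 2 naive libraries and, after papain, 2 libraries of CD11c- and 2 of CD11c+ cells. Natural helper cells, lymphoid cells of the innate type that make type 2 cytokines, were sorted as lineage-negative cells with Thy1.2, IL7Ra and CD25, with 2 naive and 2 papain libraries. The last library holds natural helper cells of papain-treated 3'UTRKO mice. The labels do not name the gene that carries this deletion, give no ages, and do not say whether libraries of 1 group came from separate mice, so the p-values measure only the spread between libraries.

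Collagens are the main structural proteins of the extracellular matrix. In each, 3 chains wind into a triple helix, and the chains of 1 collagen come from 1 to 3 genes. Fibrillar collagens (types I, III and V among them) form the fibrils of connective tissue, type IV forms the network of basement membranes, and type VI forms beaded filaments around cells. In the lung they are made chiefly by fibroblasts, smooth muscle, endothelium, epithelium and mesothelium, and leukocytes are not known as major sources of the fibrillar types. By class, 11 of the 41 genes were fibrillar, 6 encoded type IV, 4 type VI, 2 multiplexins (types XV and XVIII), 9 fibril-associated collagens, 4 transmembrane collagens, 3 short-chain network collagens, 1 the anchoring fibril collagen and 1 type XXVIII collagen.

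The promoters of collagen genes are known for CCAAT boxes and GC boxes, and the CCAAT box of Col1a2 is a textbook binding site of the factor NF-Y. The windows of 30 bases around the CCAAT motif are shown for Col1a2, a chain of the main fibrillar collagen, for Col4a1 and Col4a2, the highest collagen genes of papain basophil library 2, and for Col16a1 as a member of low level. Each is written 5′ to 3′ on the strand of the gene, from RefSeq promoters of build GRCm38.p6. Capitals mark CCAAT, or its complement ATTGG where the motif lies on the other strand.
Col1a2, chr6:4505497-4505526, plus strand, motif from 109 bases upstream of the start: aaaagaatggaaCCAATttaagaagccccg
Col4a1, chr8:11312954-11312983, minus strand, motif from 145 bases upstream: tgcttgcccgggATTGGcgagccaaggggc
Col4a2, chr8:11312761-11312790, plus strand, motif from 32 bases upstream: ccgaggagctccCCAATttgttggcgctgc
Col16a1, chr4:130047715-130047744, plus strand, motif from 113 bases upstream: cggcggtgcaggCCAATggccagtgcctcc
Col4a1 and Col4a2 are neighbours read in opposite directions. Of the 41 members, 33 had a promoter entry. In the 250 bases before the start, on either strand, CCAAT was found in 12 of these 33 (36.4%) and in 33.8% of all 32851 promoters. The GC box GGGCGG was found in 19 of 33 (57.6%) against 32.7%, and TATAAA in 5 of 33 (15.2%) against 12.4%. A member counted where any of its promoter entries held the motif, while the share of all promoters counts single entries, so the member shares can run higher. A match describes letters only and is no evidence of binding.

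Levels are FPKM, fragment counts scaled to transcript length and to the mapped fragments of the library, which the authors had rounded to whole numbers, so a value of 0 can stand for a low level. The read depth behind them is unknown. Of the 41 collagen genes, 9 were listed at 0 in all 15 libraries: Col6a6, Col9a1, Col10a1, Col11a1, Col19a1, Col22a1, Col24a1, Col25a1 and Col28a1. The other 32 were above 0 somewhere, 16 of them reached 5 FPKM in at least 1 library, and 30 reached 1 FPKM in 2 libraries and were tested. Groups were compared on log2(FPKM + 1) with limma in 1 fit of all 15 libraries. A gene is called higher or lower where the Benjamini-Hochberg adjusted p over the 14257 genes tested is below 0.05. Log2 differences on this scale understate the change of low genes.

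**Figure D1:**
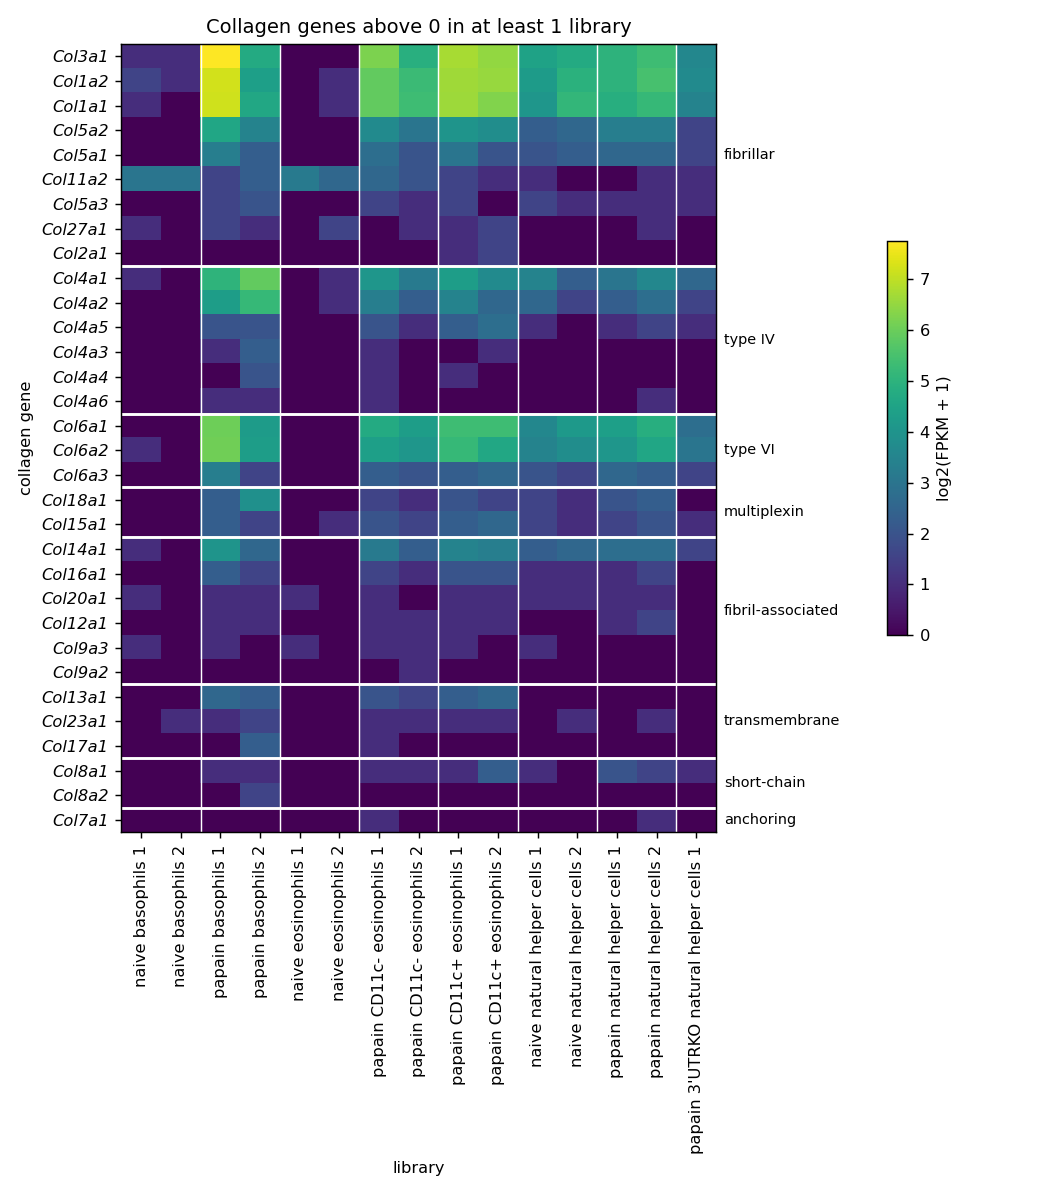
Level of each of the 32 collagen genes above 0 in at least 1 library (rows) in each of the 15 libraries (columns), coloured by log2(FPKM + 1). Naive basophils and naive eosinophils are near 0 for all rows but Col11a2. Papain basophils and papain eosinophils are above 0 for Col1a1, Col1a2, Col3a1, Col4a1, Col4a2, Col5a1, Col5a2, Col6a1, Col6a2 and Col6a3. Col4a3, Col4a4, Col4a6 and Col5a3 do not pass 4 FPKM in any library. Natural helper cells show types I, III, IV, V and VI with and without papain, with no type IV or V gene above 11 FPKM. Their Col4a1, at 4 to 11 FPKM, overlaps that of CD11c- eosinophils, at 16 and 8.

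Markers of other lung cells differed between libraries, and their levels are given before those of the collagen genes. Total FPKM ran from 374841 to 570208 and the genes above 0 from 9995 to 13049. The 10 basophil markers summed to 6739 and 5872 FPKM in naive basophils but to 702 and 2108 in papain basophils. The 10 eosinophil markers summed to 627 to 2926 in the eosinophil libraries, and the 12 natural helper cell markers to 2350 to 5446 in the natural helper cell libraries. Of the eosinophil markers, Epx, the eosinophil peroxidase, was at 0 in 4 of the 6 eosinophil libraries. The other 9 were above 0 in all 6, with Ccr3 at 124 to 229 FPKM and Siglec5 at 63 to 102. The 8 fibroblast markers, a list without collagens, summed to 11 and 1 FPKM in naive basophils and 2 and 6 in naive eosinophils, with Pdgfra, Lum, Tcf21 and Fbln1 at 0 in all 4. They summed to 502 and 243 in papain basophils, 328 and 213 in CD11c- and 502 and 515 in CD11c+ eosinophils, 359 and 173 in naive and 345 and 313 in papain natural helper cells, and 151 in the 3'UTRKO library, with 7 or 8 of the 8 genes above 0. In bulk RNA, fewer cells of a type and less RNA per cell cannot be told apart, and the part of other cells in the collagen levels was not tested.

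In the naive lung the collagen genes split the sorted cells. All 41 genes together summed to 17 and 10 FPKM in naive basophils and to 10 and 12 in naive eosinophils, but to 117 and 148 in naive natural helper cells. Col1a1, the main chain of type I collagen, read 1 and 0 FPKM in naive basophils, 0 and 1 in naive eosinophils, and 16 and 34 in naive natural helper cells. Col1a2, the partner chain, read 2 and 1, then 0 and 1, then 18 and 30. The natural helper cell libraries lay above all 4 granulocyte libraries for both chains. Col3a1, the chain of type III collagen, read 1 and 1, 0 and 0, and 21 and 26 FPKM. Col6a1, a type VI chain, was at 0 in the 4 granulocyte libraries and read 11 and 17 FPKM in naive natural helper cells.

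Against naive basophils, 12 of the 30 tested collagen genes were called higher and 1 lower in naive natural helper cells, where 13.6% of all tested genes were higher and 6.96% lower. Against naive eosinophils 11 were higher and 1 lower, beside 16.5% and 11.6% of all genes. The difference for Col6a1 was 3.88 ± 0.50 (SE) log2 against both, with limma adjusted p of 0.000959 and 0.000523. For Col1a1 it was 4.11 ± 0.77 (adjusted p 0.00667 and 0.00412), and for Col3a1 3.61 ± 0.80 (0.0143) against basophils and 4.61 ± 0.80 (0.0028) against eosinophils. The genes higher against both were Col1a1, Col1a2, Col3a1, Col4a1, Col5a1, Col5a2, Col6a1, Col6a2, Col6a3, Col14a1 and Col16a1, and Col4a2 was called only against basophils (adjusted p 0.0285, and 0.0613 against eosinophils), a difference between comparisons that was not tested. Both comparisons use the same natural helper cell libraries. Col16a1 read 1 and 1 FPKM in them and 0 in all naive basophil and eosinophil libraries, so these groups tie after rounding and add no spread to the fit. Against basophils the 12 higher calls became 3 without naive basophil library 2, 5 without either naive natural helper cell library and 7 when only both groups entered the fit. Col5a2, Col6a1 and Col6a2 were the genes called against basophils whichever library was left out. Against eosinophils 8 of the 11 were called each time, while Col6a3 and Col16a1 were lost without any 1 of the 4 libraries and Col4a1 without naive eosinophil library 1 or naive natural helper cell library 1.

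Col11a2 ran the other way. It encodes a chain of type XI collagen, a minor fibrillar collagen known from cartilage. It read 7 and 7 FPKM in naive basophils and 8 and 5 in naive eosinophils, and was the highest collagen gene in each of these 4 libraries. In the 5 natural helper cell libraries it read 0 or 1 FPKM, so the groups did not overlap. Naive natural helper cells were lower than naive basophils by limma (-2.50 ± 0.49 log2, adjusted p 0.0079) and lower than naive eosinophils (-2.38 ± 0.49, adjusted p 0.00635). Both calls were lost without naive natural helper cell library 2 and when only the groups compared entered the fit, and that against eosinophils also without naive eosinophil library 1. After papain Col11a2 read 2 and 4 FPKM in basophils, 5 and 3 in CD11c- and 2 and 1 in CD11c+ eosinophils. These values lay below the naive basophils and, in the CD11c+ gate, below the naive eosinophils, but the adjusted p was 0.15 for basophils and 0.0653 for CD11c+ eosinophils. Rxrb, the neighbour of Col11a2 on chromosome 17, read 10 and 9 FPKM in naive basophils and 16 and 18 in naive eosinophils, and 7 to 13 in the natural helper cell libraries. Between naive basophils and naive eosinophils no collagen gene was called in either direction by limma, none had an unadjusted p under 0.05, and 5.30% and 8.66% of all genes were called higher and lower. With a pseudocount of 0.1, or with only these groups in the fit, 1 collagen gene was called higher.

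Papain-treated basophils carried collagen RNA of nearly every class. Of the 30 tested collagen genes 19 were called higher and none lower, where 22.1% of all genes were called higher and 3.88% lower. The median log2 difference was 1.953 over the 30 and 0.500 over all genes. By class, 6 of 9 tested fibrillar genes rose, 4 of 6 of type IV, 3 of 3 of type VI, both multiplexins, 3 of 5 fibril-associated and 1 of 3 transmembrane collagens. Collagen genes summed to 781 and 275 FPKM in the papain libraries, 0.1612% and 0.04823% of all FPKM.

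Among the fibrillar genes, Col1a1 rose from 1 and 0 FPKM to 147 and 24 (5.43 ± 0.77 log2, SE, limma adjusted p 0.00203). Col1a2 rose from 2 and 1 to 148 and 20 FPKM (4.51 ± 0.78, adjusted p 0.00487), and Col3a1 from 1 and 1 to 215 and 26 (5.25 ± 0.80, 0.00279). No papain library overlapped a naive one, but papain library 1 stood 6.12 to 8.27 times above papain library 2 for these 3 genes. The type V chains, which set fibril diameter, were at 0 in naive basophils: Col5a2 read 23 and 10 FPKM after papain (adjusted p 0.000453), Col5a1 9 and 4 (0.00301) and Col5a3 2 and 3 (0.0229). Col27a1 read 1 and 0 before and 2 and 1 after papain and was not called.

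Type VI followed the fibrillar genes. Col6a1 was at 0 in both naive libraries and read 65 and 18 FPKM after papain (limma adjusted p 0.000453). Col6a2 rose from 1 and 0 to 66 and 19 (0.000844), and Col6a3, at 0 before, read 9 and 2 (0.00805). Col6a1 and Col6a2 are neighbours on chromosome 10, and Col6a1 was 0.985 and 0.947 times Col6a2 in papain libraries 1 and 2.

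Type IV did not share the order of both papain libraries. Col4a1, with Col4a2 the ubiquitous chain of basement membranes, rose from 1 and 0 to 32 and 59 FPKM (4.98 ± 0.59 log2, limma adjusted p 0.000907). Col4a2 was at 0 in naive basophils and read 19 and 36 FPKM after papain (adjusted p 0.000844). Both were higher in papain library 2, by 1.84 and 1.89 times, where the fibrillar genes were lower. The chains Col4a3, Col4a4 and Col4a5, known from kidney and lung basement membranes, were at 0 in naive basophils. After papain Col4a3 read 1 and 4 FPKM (0.0327), Col4a5 3 and 3 (0.0104), and Col4a4 0 and 3, which was not called. Col18a1, a basement membrane multiplexin that holds endostatin, went from 0 and 0 to 4 and 14 FPKM (3.11 ± 0.48, adjusted p 0.00284), again with library 2 the higher. Col17a1, the hemidesmosome collagen of epithelia, was at 0 in papain library 1 and 4 FPKM in library 2, and Col8a2 was 2 FPKM in library 2 and 0 in the other 14 libraries.

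**Figure D2:**
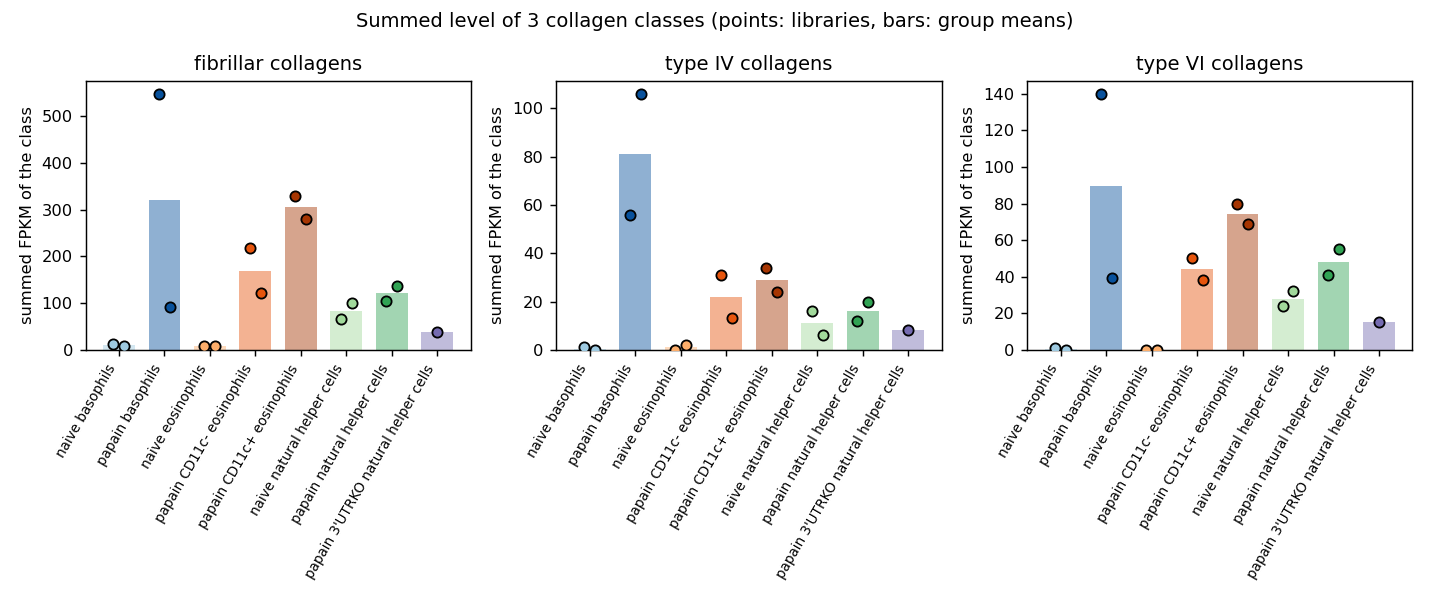
Summed FPKM (vertical axes, from 0) of the fibrillar, type IV and type VI collagen genes in the 8 groups; points are libraries and bars are group means. Fibrillar sums were 548 and 92 FPKM in papain basophils and type IV sums 56 and 106, so the libraries take opposite orders in these classes.

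As shares of all collagen FPKM, fibrillar genes made up 70.2% in papain basophil library 1 and 33.5% in library 2, and type IV genes 7.17% and 38.5%. In the other papain and natural helper cell libraries the fibrillar share was 55.6% to 69.7% and the type IV share 4.05% to 13.7%, so library 2 stood apart from them in both. Col3a1 was 6.72 times Col4a1 in library 1 and 0.441 times in library 2, and 2.1 to 7.42 times in those other libraries. The chain ratios within a collagen varied less where the collagen sum passed 60 FPKM. Col1a1 was 0.818 to 1.2 times Col1a2, Col4a1 1.64 to 2.5 times Col4a2, and Col6a1 0.857 to 1.67 times Col6a2. Of the 29 collagen genes above 0 in papain basophils, 14 were higher in library 1, 10 in library 2 and 5 equal. Marker sums differed between these libraries too. Fibroblast markers summed to 502 and 243 FPKM, endothelial markers to 114 and 338, mesothelial markers to 34 and 235, epithelial markers to 20497 and 34782 (of which Scgb1a1, a club cell protein, was 19550 and 32382, against 6363 and 8531 in naive basophils), and alveolar macrophage markers to 11974 and 301. Their part in the collagen make-up was not tested.

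**Figure D3:**
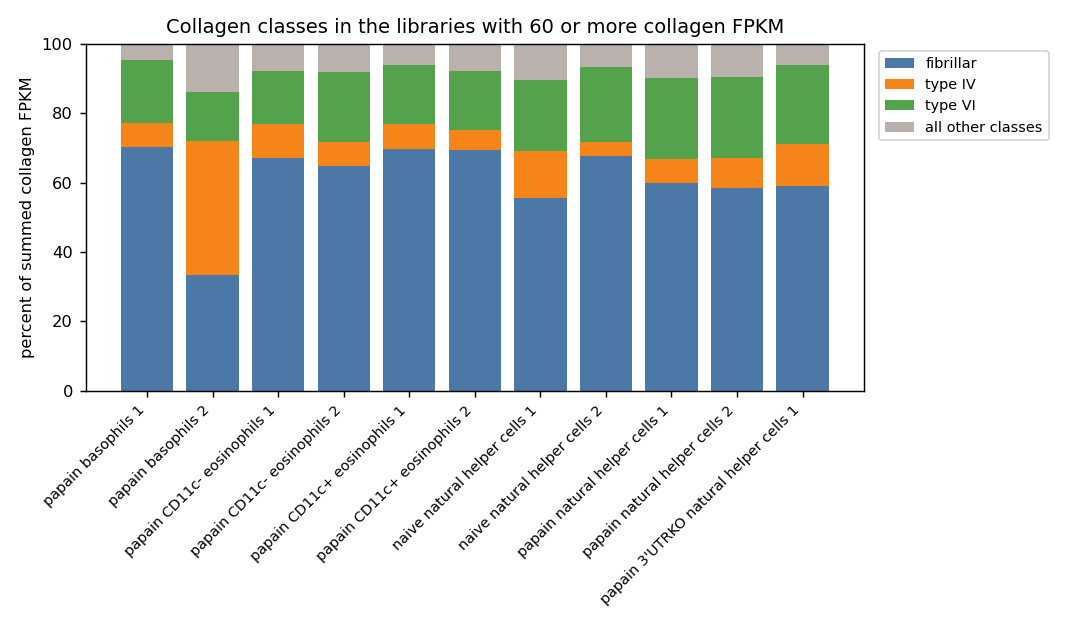
Share of summed collagen FPKM (percent, stacked bars) taken by each collagen class in the 11 libraries where collagen genes sum to 60 FPKM or more. Papain basophil library 2 shows 38.5% type IV, while the other 10 libraries show 4.05% to 13.7%.

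The fibril-associated and transmembrane collagens rose to lower levels. Col14a1, which binds fibrils through decorin, rose from 1 and 0 to 15 and 5 FPKM (2.79 ± 0.50 log2, limma adjusted p 0.00555). Col13a1, a transmembrane collagen of cell junctions, was at 0 in both naive libraries and read 5 and 4 FPKM after papain (2.45 ± 0.20, adjusted p 0.000333). Col15a1, Col16a1 and Col12a1, at 0 before papain, read 4 and 2, 4 and 2, and 1 and 1 FPKM, and all 3 were called higher. For Col12a1 the libraries of each group tie after rounding, so they add no spread to the fit. Col23a1 read 0 and 1 before and 1 and 2 after papain and was not called.

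The count of 19 depended on the libraries that estimate the spread: with only the 4 basophil libraries in the fit it was 6. Leaving out 1 basophil library at a time gave 14 to 21, and 14 of the 19 genes were called each time; without naive library 2 the calls of Col15a1, Col4a3, Col4a5, Col5a3 and Col6a3 were lost, and those of Col4a3 and Col5a3 also without naive library 1 or papain library 2.

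Papain eosinophils of both gates carried RNA of collagen types I, III, V and VI. Naive eosinophils serve as control for both, so these comparisons are not independent. In CD11c- cells 11 of 30 tested collagen genes were called higher and none lower, beside 1.87% and 0.372% of all genes. In CD11c+ cells 19 were higher and none lower, beside 9.93% and 2.20%. The 19 include Col2a1, which passed the filter only through the CD11c+ libraries. The median log2 difference over the 30 was 1.292 in the CD11c- gate, where it was 0.208 over all genes, and 1.873 in the CD11c+ gate, where it was 0.336 over all genes.

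Col1a1 rose from 0 and 1 FPKM in naive eosinophils to 59 and 40 in CD11c- (5.13 ± 0.77 log2, SE, limma adjusted p 0.0122) and 97 and 77 in CD11c+ cells (5.95 ± 0.77, 0.00245). Col1a2 rose from 0 and 1 to 59 and 38 and to 99 and 94. No papain library overlapped a naive one for either chain of type I. Col3a1 was at 0 in naive eosinophils and read 74 and 29 FPKM in CD11c- (adjusted p 0.0099) and 105 and 89 in CD11c+ cells (0.00205). Col5a2, also at 0 in naive cells, read 12 and 7 FPKM in CD11c- (0.00364) and 15 and 13 in CD11c+ cells (0.000849). Col5a1 read 6 and 3 and 7 and 3 from 0, and was called in both gates. Col2a1, the cartilage collagen, was 1 and 2 FPKM in CD11c+ eosinophils and 0 in the other 13 libraries. It passed the filter only through the CD11c+ libraries. Its limma call there (adjusted p 0.00275) could thus only be higher, and is no support for a rise.

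Type VI rose with them. Col6a1, at 0 in naive eosinophils, read 26 and 19 FPKM in CD11c- (limma adjusted p 0.00361) and 40 and 40 in CD11c+ cells (0.000785). Col6a2 read 20 and 16 (0.00654) and 36 and 24 (0.00136), again from 0. Col6a3 read 4 and 3 and 4 and 5 FPKM and was called only in the CD11c+ comparison (0.0142, against 0.0598 in CD11c- cells).

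Type IV genes summed to 31 and 13 FPKM in CD11c- and 34 and 24 in CD11c+ cells, below the 56 and 106 of papain basophils, and to at most 2 in naive eosinophils. Col4a1 rose from 0 and 1 FPKM to 16 and 8 in CD11c- (3.13 ± 0.59 log2, limma adjusted p 0.0314) and 19 and 12 in CD11c+ cells (3.51 ± 0.59, 0.00782). Col4a2 read 0 and 1, then 9 and 4 (adjusted p 0.0766) and 10 and 5 (0.0224). All 4 papain eosinophil libraries lay above both naive ones for each chain. Col4a5 was at 0 in naive cells and read 3 and 1 in CD11c- and 4 and 6 FPKM in CD11c+ cells, where it was called (0.00697).

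Among the other classes, Col13a1 went from 0 and 0 to 3 and 2 FPKM in CD11c- (1.79 ± 0.20 log2, limma adjusted p 0.00385) and 4 and 5 in CD11c+ cells (2.45 ± 0.20, 0.000506). Col14a1 went from 0 and 0 to 8 and 4 FPKM (0.0275) and 10 and 9 (0.00445). Col12a1, at 0 in naive cells, read 1 FPKM in all 4 papain libraries and was called in both gates. Its libraries tie within each of these groups after rounding, so they add no spread to the fit, and the true gap can be small. In the CD11c- gate the call was lost with quantile normalization and with the replicate number as a block. Col8a1, Col15a1, Col16a1 and Col18a1, with 1 to 5 FPKM in each CD11c+ library against 0 or 1 in naive cells, were called in that gate only, and the difference between gates was tested as follows. Of the 30 genes 20 had a higher and 4 an equal mean log2 level in CD11c+ compared with CD11c- cells (equal within 1e-06), but limma called none in either direction, 4 had an unadjusted p under 0.05, and 0.0281% of all genes were called each way. With a pseudocount of 0.1 or no filter on low values 1 collagen gene was called higher in the CD11c+ gate. Col2a1, which passed the filter only through the CD11c+ libraries, came nearest, with 1.29 log2 and an adjusted p of 0.0599.

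The CD11c- count was sensitive to single libraries: it was 2 and 4 without naive library 1 or 2, and 3 and 5 without CD11c- library 1 or 2, and Col5a2 and Col6a1 were the genes called every time. The CD11c+ count was 10 without naive library 1. The 10 genes called in each such fit that tested them were Col1a1, Col1a2, Col2a1, Col3a1, Col5a2, Col6a1, Col6a2, Col13a1, Col14a1 and Col16a1. Of these, Col2a1 fell below the filter without either CD11c+ library and was not tested there. The other 9 calls were each lost without at least 1 library.

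**Figure D4:**
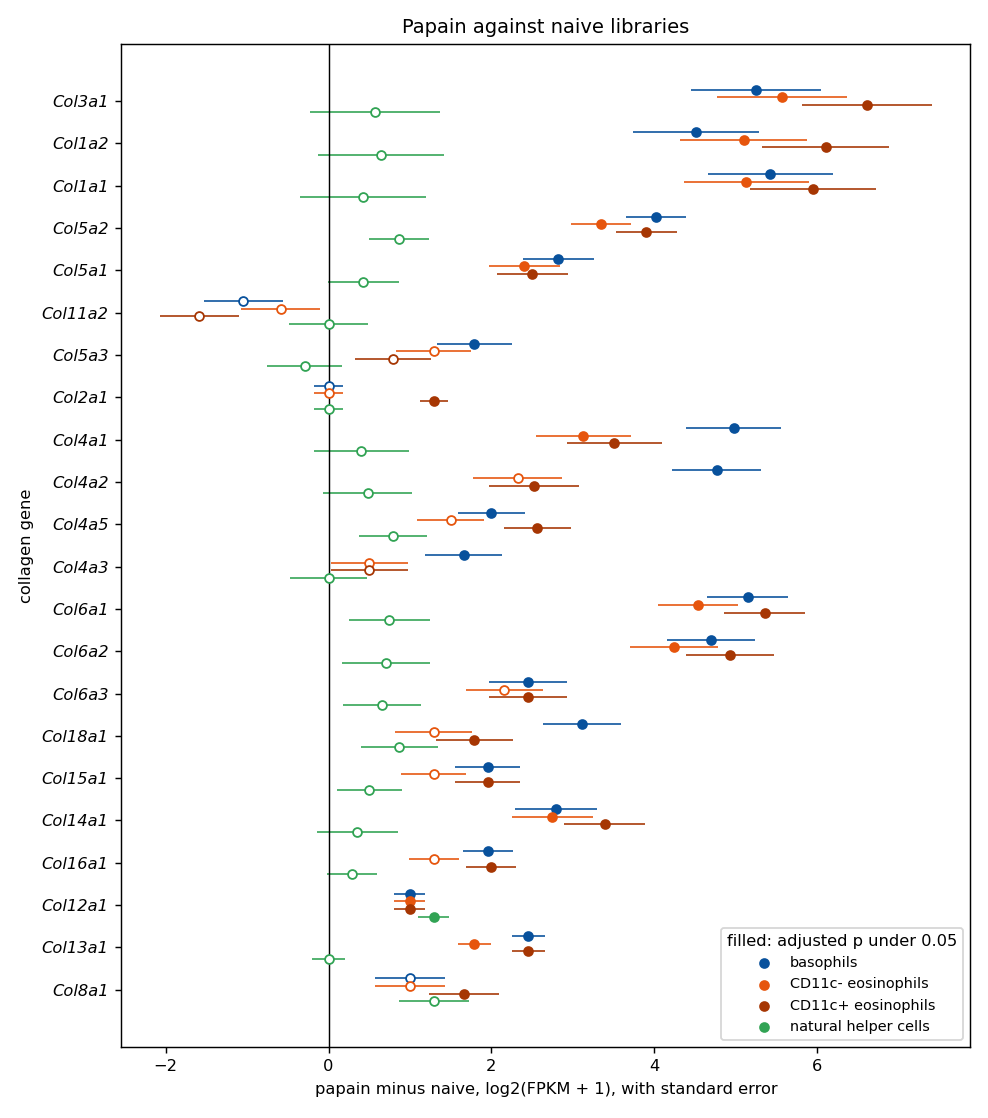
Papain minus naive difference in log2(FPKM + 1), with standard errors, for collagen genes in basophils, both eosinophil gates and natural helper cells; filled points have an adjusted p under 0.05. Col1a1 lies at 5.43 in basophils, 5.13 in CD11c- and 5.95 in CD11c+ eosinophils, and 0.43 in natural helper cells.

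In natural helper cells limma called 1 collagen gene after papain, and an uncalled difference between groups of 2 libraries does not show equal levels. Col1a1 read 16 and 34 FPKM without papain and 28 and 36 with it, with overlap (0.43 ± 0.77 log2, SE, limma adjusted p 0.965). Col1a2 read 18 and 30, then 31 and 44, and Col3a1 21 and 26, then 31 and 40 (0.57 ± 0.80, adjusted p 0.909). Neither overlapped, yet both differences were smaller than their standard error. Col6a1 read 11 and 17, then 20 and 28 FPKM (0.75 ± 0.50, 0.684), and Col6a2 10 and 13, then 16 and 23. Col5a2 read 4 and 5, then 9 and 9. Col6a1, Col6a2 and Col5a2 did not overlap either, and none of them was called. Col4a1 overlapped, with 10 and 4 before and 7 and 11 after papain (0.40 ± 0.59, 0.919), as did Col4a2 with 5 and 2, then 4 and 6.

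Over the 30 tested genes 20 differences were positive and 8 were 0, with a median of 0.453 log2 against 0.092 for all genes. Col12a1, a fibril-associated collagen, was the 1 gene called higher, none was called lower, and 3 had an unadjusted p under 0.05. Of all genes 0.540% were called higher and 0.245% lower. Col12a1 was at 0 in both naive libraries and read 1 and 2 FPKM after papain (1.29 ± 0.19, adjusted p 0.0175). That call was lost with quantile normalization, with only both groups in the fit, and without either naive library or papain library 2.

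Whether basophils and natural helper cells responded differently was tested as an interaction in the same fit. The papain difference was larger in basophils for 8 of 30 collagen genes and smaller for none, beside 4.64% and 2.12% of all genes. The 8 were Col1a1, Col3a1, Col4a1, Col4a2, Col5a2, Col6a1, Col6a2 and Col13a1. The gap was 5.0 ± 1.09 log2 for Col1a1 (SE, limma adjusted p 0.0307), 4.57 ± 0.83 for Col4a1 (0.0162) and 2.45 ± 0.28 for Col13a1 (0.0034). Only Col13a1 was called whichever library was left out. The count was 1 without papain natural helper cell library 1, 3 without naive basophil library 2 or naive natural helper cell library 1, 5 without naive natural helper cell library 2 or papain natural helper cell library 2, and 13 without papain basophil library 2, and it was 4 with only these groups in the fit. Against CD11c- eosinophils no collagen gene differed in its papain response by limma, 3 had an unadjusted p under 0.05 and 1.61% of all genes were called higher and 0.751% lower. The largest gap there was for Col4a2 (2.44 ± 0.78 log2, adjusted p 0.16), and 2 genes were called without papain basophil library 1.

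Col13a1 and Col14a1, known as markers of separate kinds of lung matrix fibroblast, differed between the sorted cells. Col13a1 was at 0 FPKM in all 5 natural helper cell libraries, and Col14a1 read 4, 5, 6, 6 and 2 there. In papain basophils and papain eosinophils Col13a1 read 2 to 5 FPKM and Col14a1 4 to 15. Among fibroblast genes other than collagens, Mfap4, a fibril glycoprotein, read 1 to 20 FPKM in the natural helper cell libraries and 41 to 171 in papain basophils and eosinophils, while Dcn (decorin) read 97 to 232 and 99 to 200. Col1a1 was 0.069 to 0.351 times Dcn in natural helper cells, 0.385 to 0.485 times in papain eosinophils, and 0.86 and 0.178 times in papain basophils. These ratios are descriptions of levels per length within a library, with no test.

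In the 3'UTRKO library collagen genes were low. Col1a1 read 10 FPKM against 28 and 36 in papain natural helper cells of the other mice, Col6a1 6 against 20 and 28, and Col5a2 2 against 9 and 9. The 41 genes summed to 66 FPKM against 175 and 234, below both. Of the 30 tested genes 1 difference was positive and 7 were 0, and the median was -0.792 log2, against -0.073 for all genes. By limma none was called in either direction, 5 had an unadjusted p under 0.05, and 0.210% and 0.358% of all genes were called higher and lower. Of the 3 genes above, Col5a2 had the lowest adjusted p (-1.74 ± 0.45 log2, SE, adjusted p 0.237). With 1 library this group has no spread of its own, and it was assumed to vary like the others. Other settings gave calls: 3 genes were lower with a pseudocount of 0.1, 1 with no filter and 4 with only both groups in the fit. Fibroblast markers were also lower there, with 151 FPKM against 345 and 313, and their part was not tested. Mia3, a gene of the collagen folding list below, read 13 FPKM in the 3'UTRKO library and 0 in every other library. It missed the filter, and whether this library was quantified differently from the others was not tested.

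**Figure D5:**
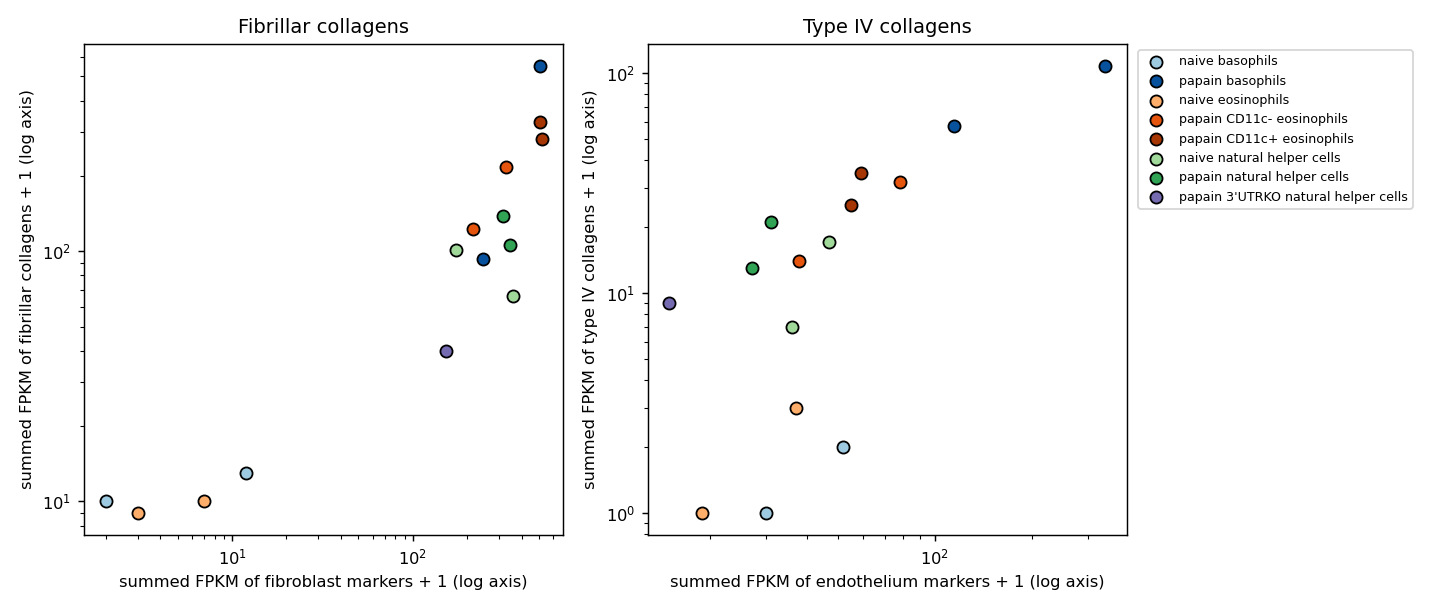
Summed FPKM + 1 of collagen classes (vertical, log axes) against summed FPKM + 1 of stromal marker genes (horizontal, log axes), 1 point per library. Fibrillar genes are set against fibroblast markers and type IV genes against endothelial markers. Naive basophils and naive eosinophils lie lowest for fibroblast markers, at 1 to 11 FPKM, and all other libraries lie at 151 or more. Endothelial markers do not separate the groups in this way. They summed to 51 and 29 FPKM in naive basophils, 18 and 36 in naive eosinophils, and 26 and 30 in papain natural helper cells. Type IV sums in these groups were 1 and 0, 0 and 2, and 12 and 20 FPKM.

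The remaining members stayed low. Of the 30 tested, 8 never passed 2 FPKM in any library, among them Col7a1, the anchoring fibril collagen, Col20a1, Col9a3 and Col4a6. Col8a2 and Col9a2 were above 0 in 1 library each and were not tested. Col8a1, a short-chain network collagen, reached 4 FPKM in CD11c+ library 2 and 3 FPKM in papain natural helper cell library 1.

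The genes that fold, cut, cross-link and bind collagen were read from 6 lists. These lists were chosen with earlier results of these data known, so their counts are no independent support. In papain basophils 10 of 17 tested folding and modification genes were called higher, 8 of 10 cleavage and cross-linking genes, 10 of 11 fibril partners, 6 of 9 basement membrane partners, 3 of 9 receptors and 8 of 11 degrading enzymes and their inhibitors, and none was lower. Beside the 22.1% of all genes called higher there, the receptor count is not far from the background. With only the basophil libraries in the fit these counts were 3, 1, 2, 3, 1 and 0. Serpinh1, the collagen chaperone HSP47, rose from 1 and 1 FPKM to 83 and 100 (5.53 ± 0.40 log2, SE, limma adjusted p 0.000252). Lox, which cross-links fibrils, was at 0 in naive basophils and read 42 and 10 FPKM after papain (adjusted p 0.000832). Sparc, a collagen-binding matrix protein, rose from 4 and 1 to 348 and 197 FPKM (0.000333), and Timp1, an inhibitor of collagenases, from 10 and 1 to 385 and 239 (0.00203). Decorin, lumican and fibulin-1 stand in both the fibril partner and the fibroblast list. In the CD11c+ gate 5 of 17, 7 of 10, 9 of 11, 5 of 9, 2 of 9 and 5 of 11 were higher, beside 9.93% of all genes, and 1 folding gene and 1 receptor were lower: Glt25d1, a collagen galactosyltransferase, and Lair1, an inhibitory collagen receptor of leukocytes, which read 8 and 13 FPKM in naive eosinophils and 3 and 0 in this gate (adjusted p 0.0454). In the CD11c- gate 2 of 17, 5 of 10, 8 of 11, 5 of 9, 1 of 9 and 5 of 11 were higher, beside 1.87% of all genes, with Glt25d1 lower. Lower calls took 2.20% of all genes in the CD11c+ and 0.372% in the CD11c- gate.

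Natural helper cells gained 1 partner gene after papain, Tnc (tenascin C), which read 1 FPKM in each naive library and 8 and 16 after papain (2.63 ± 0.39 log2, limma adjusted p 0.0177). Serpinh1 read 17 and 16, then 15 and 25 FPKM there, with overlap, and Lox 1 and 1, then 8 and 10, without a call. In the 3'UTRKO library Ppib, a collagen prolyl isomerase, was the 1 partner gene called, with 71 FPKM against 219 and 226 (-1.63 ± 0.26, adjusted p 0.034).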

How the data were processed

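RNA of sorted lung basophils, eosinophils and natural helper cells was sequenced in 15 libraries. The deposited values are FPKM, an expression score that the authors rounded to whole numbers. Per the submitters' processing notes, TopHat 1.4.0, Cufflinks 1.3.0 and build mm9 were used. Commas were removed from 1008 cells, 3 cells next to 0 were set to 0, and 5521 rows were 0 throughout. Read depth is unknown. Groups came from the labels, and no column was left unmapped.

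The 14257 genes that reached 1 FPKM in 2 or more libraries were tested on log2(FPKM + 1) with limma 3.58.1 in R 4.3.3, with a coefficient per group, an intensity trend, 7 residual degrees of freedom, two-sided tests and Benjamini-Hochberg adjustment at 0.05. The fit was tested on simulated data. Members are described library by library where a group mean reached 5 FPKM or a comparison called them. The members and lists were chosen with earlier results of these data known. All 41 symbols were found in the RefSeq gene table of GRCm38.p6, another build than mm9, so it gave only neighbours and promoter windows. Alternatives were another pseudocount, no filter, median-ratio scaling, quantile normalization, only the groups compared, a replicate block and leaving out each library.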

Additional observations from a re-analysis of the deposited data

Results flagged for a closer look

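For 8 collagen genes the papain response of basophils differed from that of natural helper cells by the test of the difference itself, a limma interaction term with Benjamini-Hochberg adjusted p, and in all 8 it was larger in basophils. Col1a1 differed by 5.0 log2 (adjusted p 0.0307) and Col3a1 by 4.68 (0.0446), the fibrillar chains of types I and III. Col4a1 differed by 4.57 (0.0162) and Col4a2 by 4.29 (0.0165), the basement membrane chains. Col6a1 differed by 4.40 (0.00917) and Col6a2 by 3.99 (0.0188), the type VI chains. Col5a2 differed by 3.15 (0.0111), and Col13a1, at 0 FPKM in every natural helper cell library, by 2.45 (0.0034). Of all genes 4.64% were called higher by the same test. The test compares changes, not levels after papain. Col1a1 started from 1 and 0 FPKM in basophils and 16 and 34 in natural helper cells. After papain it read 147 and 24 against 28 and 36, with overlap, while Col4a1 read 32 and 59 against 7 and 11. Of the 8 calls 7 were lost on leaving out at least 1 library, and the count then ran from 1 to 13.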

How the results depend on the processing

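No direction of a called collagen gene reversed under any alternative: of 860 recomputed calls 674 were kept and 186 lost, and of 232 recomputed counts 194 stayed within 1.5 times. With median-ratio scaling every count stayed within 1.5 times. With only the compared groups in the fit, higher calls were 6 in papain basophils, 0 in papain natural helper cells, 7 in naive natural helper cells against basophils, 1 in naive basophils against eosinophils and 4 for the interaction of basophils and natural helper cells, lower calls were 0 for naive natural helper cells against basophils and against eosinophils, and 4 in the 3'UTRKO library. Quantile normalization gave 1 lower call in papain basophils, 1 in CD11c+ eosinophils and 0 higher calls in papain natural helper cells. A pseudocount of 0.1 gave 1 higher call in CD11c+ against CD11c- cells, 1 in naive basophils against eosinophils and 3 lower calls in the 3'UTRKO library; no filter gave 1 in CD11c+ against CD11c- cells and 1 lower in the 3'UTRKO library.

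Leaving out 1 library gave higher counts of 14 to 21 in papain basophils, 0 to 1 in papain natural helper cells, 2 to 5 in CD11c- and 10 to 16 in CD11c+ eosinophils, 3 to 9 and 8 to 9 in naive natural helper cells against basophils and eosinophils (lower counts 0 to 1 in both), 1 to 13 for the interaction with natural helper cells and 0 to 2 for that with CD11c- eosinophils, and lower counts of 0 to 1 in the 3'UTRKO library. The cause of these changes was not tested, beyond the fewer libraries that estimate the spread.

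The labels do not say whether replicate numbers pair samples, and with 2 libraries a group the data cannot settle it. Differences between replicates correlated above 0.1 in 1 of 21 pairs of groups (range -0.153 to 0.116). With the replicate number as a block every count stayed within 1.5 times, at 19 higher in papain basophils, and 7 of 83 calls were lost. Scaling moved the median of all genes: the papain difference in basophils was 0.500 log2 as deposited, 0.268 with median-ratio factors and 0.000 with quantiles. Among partner lists 194 of 1392 recomputed counts moved by over 1.5 times. With only the compared groups in the fit the 6 lists gave 3, 1, 2, 3, 1 and 0 higher calls in papain basophils, the cleavage, fibril and receptor lists 1, 0 and 2 in papain natural helper cells, the folding, basement membrane and degrading lists 1, 3 and 3 in CD11c- cells and the degrading list 3 in CD11c+ cells. Folding calls were 6 in papain basophils with quantiles, and 4 in CD11c- cells with a pseudocount of 0.1. Rounding to whole FPKM limits every value near 0.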
